A study of Homo sapiens with 4 samples.

Results

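The SOCS genes (suppressors of cytokine signalling) with STAT3 and PIM1 were examined on 4 single-colour arrays of A549 cells, a human lung adenocarcinoma line, at 4h of treatment. The members were SOCS1 to SOCS7, CISH, STAT3 and PIM1, 10 genes of 30970 named on the array, chosen by symbol or by RefSeq transcript among probes that were not control spots. They were read by 21 probes on 31 spots. The control group held 2 samples labelled untreated, and the embelin group held 2 samples treated with 15 µM embelin, a benzoquinone from plants known as an inhibitor of the caspase inhibitor XIAP. Before treatment, cells of both groups had been kept in MEM with 2% foetal bovine serum for 12 h. The labels do not say whether the 2 samples of a group came from separate cultures, so p-values measure only the spread between these samples, which may be technical.

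Cytokines of the interleukin-6 type bind receptors that carry JAK kinases, the kinases phosphorylate STAT3, and paired STAT3 molecules enter the nucleus and switch on target genes. Among these targets are SOCS genes, whose products bind the receptor or the kinase and close the loop as negative feedback. CISH is the family member known best as a feedback gene of STAT5, while PIM1, a serine/threonine kinase that favours survival, is a classical output of both factors. SOCS proteins share an SH2 domain and a SOCS box, through which they recruit elongins and CUL5 into a ubiquitin ligase. In many lung cancer cells STAT3 is kept active by such cytokines, made by the cells themselves.

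Values are processed spot signals after each array was scaled to a common 75th percentile, on the log2 scale, and a difference of 1 is a 2-fold change. A probe was kept if either group had it well above background on both of its arrays, and the brightest kept probe stood for its gene. Levels of different probes were not compared, since probes differ in brightness. The arrays differed in how far down they could read. The dimmest signals well above background stood at 3.83 in log2 on control 1 and 3.89 on embelin 2, but at 5.85 on control 2 and 5.97 on embelin 1, and 66.7%, 66.4%, 50.3% and 51.2% of probes, in that order, were well above background. All 6 epithelial markers, such as KRT18 and EPCAM, were well above background on all 4 arrays. Of the 4 endothelial markers none was kept, of 5 blood cell markers 2 were kept (CD14 and CD3E) and of 5 fibroblast markers 1 (COL1A1), and 0 of the kept markers passed the adjusted test. COL1A1, a collagen gene, measured 6.38 and 6.27 in log2 in the controls and 7.56 and 7.69 with embelin, a log2 fold change of 1.30 ± 0.17 (SE, adjusted p = 0.0547), and at each of its 3 probes both embelin arrays lay above both controls. The summed level of the fibroblast markers was 6.83 and 8.19 in log2 in the controls and 9.96 and 7.86 with embelin, that of blood cell markers 9.59 and 9.87 against 9.86 and 9.13, and that of endothelial markers 6.08 and 5.70 against 5.94 and 6.02. At 1 of their probes COL1A2, COL3A1 and PTPRC were well above background on 1 array, embelin 1, at 8.30, 8.86 and 7.57, and LUM was so on control 2, at 7.44. The part of these differences in the results that follow was not tested. In bulk RNA, a change in the number of cells that express a gene and a change in RNA per cell cannot be told apart.

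None of the 9 member genes with a kept probe changed at an adjusted p under 0.05 in limma, where 320 of 17649 genes (1.81%) did. SOCS4, which had no kept probe, was left out of this test. The 3 largest differences were those of SOCS5, 2.74-fold lower with embelin, SOCS7, 2.00-fold higher, and PIM1, 1.94-fold higher. At an unadjusted p under 0.05 these 3 of 9 genes passed, against 19.5% of all genes tested. The embelin and control arrays did not overlap in 5 of 9 members, against 51.8% of genes, and 2 of 9 differed by at least 2-fold, against 12.6% of genes. The median size of the difference, without its sign, was 0.29 in log2 over the members and 0.30 over all genes tested. As a group, then, the members moved about as much as genes on the array in general, and the values below are those of single genes. Student's t-test, named in the study's methods, gave 2 members at an unadjusted p under 0.05, and 0 members and 0 genes after Benjamini-Hochberg adjustment, with 2755 genes at an unadjusted p under 0.05.

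**Figure D1:**
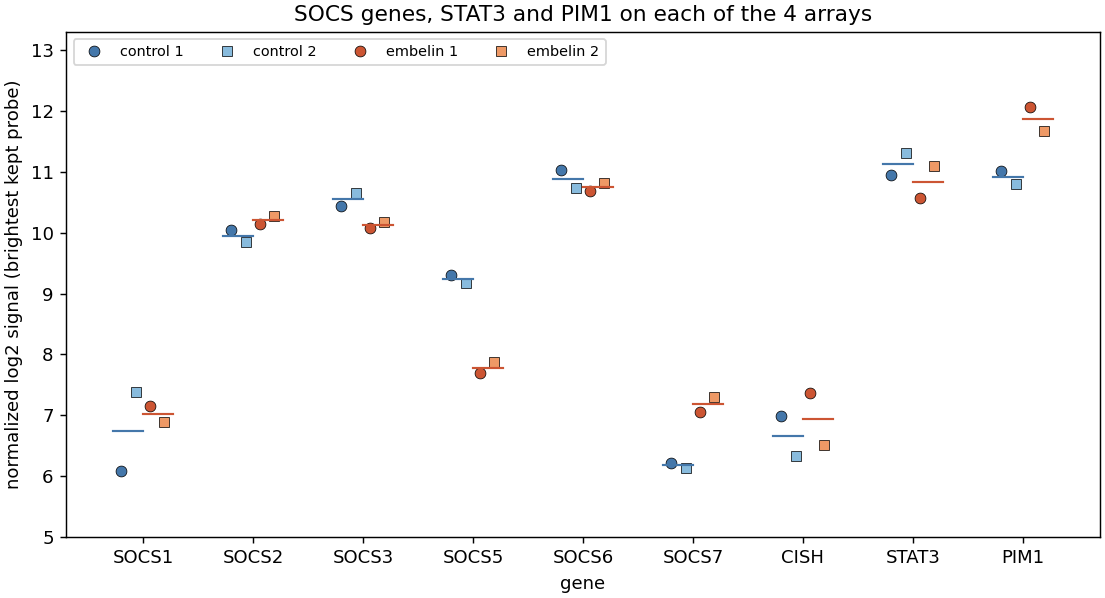
Normalized log2 signal (vertical axis) of each member gene (horizontal axis) at its brightest kept probe on the 4 arrays. Points are single arrays and lines are group means of 2 arrays. The embelin arrays of SOCS5 lie at 7.69 and 7.88, below both controls at 9.30 and 9.17, while those of SOCS7 and PIM1 lie above their controls and those of SOCS1, SOCS6, CISH and STAT3 overlap with them.

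STAT3, the transcription factor at the centre of the loop, measured 10.95 and 11.31 in log2 in the 2 controls and 10.58 and 11.10 with embelin. The groups overlapped, with embelin 1 the lowest array and control 2 the highest. STAT3 had a log2 fold change of -0.29 ± 0.27 (SE, 95% interval -1.03 to 0.44), which did not pass the test (adjusted p = 0.617). A second probe of STAT3 gave 10.29 and 10.62 in the controls and 10.02 and 10.49 with embelin, a log2 fold change of -0.20, in the same order of arrays.

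The third STAT3 probe was printed on 11 spots of each array and so shows how far spots of 1 array differ. These spots share 1 hybridised sample, so their spread does not cover error that affects a whole array. On control 1 the spots averaged 8.02 ± 0.092 in log2 (SD over 11 spots), and on control 2 they averaged 7.97 ± 0.083 over 10 spots, 1 outlier spot having been left out. On embelin 2 the mean was 7.96 ± 0.067 over 11 spots, with every spot between 7.84 and 8.04. On embelin 1 the mean was 7.24 ± 0.075 over 11 spots, and the highest of these spots, at 7.33, lay below the lowest spot of any other array. The 2 embelin arrays therefore differed from each other by several times the spread between spots, while embelin 2 lay within that spread of control 2. The log2 fold change of this probe was -0.40 ± 0.30 (SE), with an adjusted p of 0.556 over all 26145 probes tested, of which 1.08% passed. Of the 4 arrays, embelin 1 was the lowest at all 3 kept probes of STAT3. Outlier spots, counted over all non-control spots, numbered 743 on embelin 1, 87 on embelin 2, 47 on control 1 and 296 on control 2. Whether array quality had a part in the low values of embelin 1 was not tested. Without embelin 1 the log2 fold change at the brightest probe was -0.03, and without embelin 2 it was -0.55. The fourth STAT3 probe was well above background on 0 arrays.

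**Figure D2:**
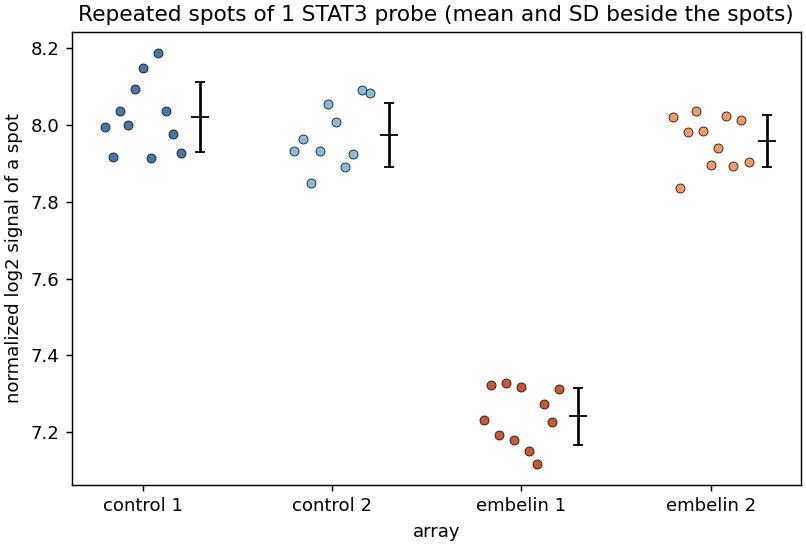
Normalized log2 signal (vertical axis) of the repeated spots of 1 STAT3 probe on each of the 4 arrays (horizontal axis); points are spots, and the bar beside them is the mean with the SD over spots. The spots of embelin 1, with a mean of 7.24, lie apart from the other 3 arrays, whose means are 8.02, 7.97 and 7.96.

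SOCS3, the feedback inhibitor most closely tied to gp130 and STAT3, measured 10.44 and 10.66 in log2 in the controls and 10.08 and 10.18 with embelin. Both embelin arrays lay below both controls, by a narrow margin. The log2 fold change of -0.42 ± 0.18 (SE, 95% interval -0.91 to 0.07) did not pass the test (adjusted p = 0.309). Its second, dimmer probe gave 5.84 and 6.27 in the controls and 5.36 and 6.15 with embelin, where 1 of 2 embelin arrays was well above background, and there the groups overlapped. The upper end of the interval at the brighter probe was 0.07. In the fit over all probes the upper end was 0.10 at that probe and 0.65 at the dimmer one. The 2 probes thus bound a rise of SOCS3 RNA differently.

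SOCS1, which inhibits the JAK kinases directly and is known best as a feedback gene of interferon signalling, measured 6.08 and 7.38 in log2 in the controls and 7.16 and 6.88 with embelin. The 2 controls differed from each other by more than the group means did. For SOCS1 the log2 fold change was 0.29 ± 0.49 (SE, 95% interval -1.04 to 1.62, adjusted p = 0.803), and without control 1 it turned to -0.36. A second SOCS1 probe, not kept, was well above background on 1 array of each group and stood at 4.73 and 4.57 in the controls and 5.08 and 5.30 with embelin.

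SOCS2, a restraint on growth hormone and STAT5 signalling, measured 10.04 and 9.84 in log2 in the controls and 10.15 and 10.27 with embelin. The embelin arrays lay above the controls without overlap, yet the difference of 0.27 ± 0.18 (SE, 95% interval -0.21 to 0.75) was not called (adjusted p = 0.469). At the second SOCS2 probe the groups overlapped, with 6.35 and 6.78 in the controls against 6.45 and 6.91.

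CISH, the first of the family to be described, measured 6.98 and 6.33 in log2 in the controls and 7.36 and 6.51 with embelin. In each group 1 array was high and the other low, and the groups overlapped. Between the group means lay a log2 fold change of 0.28 ± 0.40 (SE, 95% interval -0.82 to 1.39, adjusted p = 0.760). It became -0.05 without control 2 and -0.14 without embelin 1. The second CISH probe was not kept and read 5.56 and 5.27 in the controls and 5.57 and 5.53 with embelin.

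The promoter of CISH is shown because, among the stretches of members' promoters searched, it alone holds the palindromic STAT site. STAT dimers bind the palindrome TTCNNNGAA, which reads the same on both strands. RefSeq promoter windows (GRCh38.p14, 250 bases before to 50 after the start) were matched by symbol for 7 of 10 members. The CISH window held 4 matches, which do not overlap one another, and the windows of PIM1, SOCS1, SOCS3, SOCS4, SOCS6 and STAT3 held 0. Bases outside these windows were not searched, so a count of 0 does not show that a promoter lacks the site. SOCS2, SOCS5 and SOCS7 were not matched. Of all 35116 windows, 7.66% held at least 1 match and 7 windows held 4 or more. The stretch of the CISH window that holds its matches, chr3:50611875-50612024 on the minus strand, reads as follows from 5′ to 3′, with the matches in capitals.
CISH: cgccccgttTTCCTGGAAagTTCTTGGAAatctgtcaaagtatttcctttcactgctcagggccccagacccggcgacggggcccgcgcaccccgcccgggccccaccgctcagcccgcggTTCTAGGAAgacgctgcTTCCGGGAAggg
The matches begin 241, 230, 129 and 112 bases before the start of the gene, in pairs of neighbours. Beside these sites stands the CISH signal given above, which differed less between the groups than within either of them. A match is a stretch of letters, and no binding was measured on these arrays.

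SOCS5, a member with a long N-terminal region that is known as a negative regulator of EGF receptor signalling and of interleukin-4 responses, measured 9.30 and 9.17 in log2 in the controls and 7.69 and 7.88 with embelin. The embelin arrays lay far below the controls, and the arrays of a group differed little from each other. For SOCS5 the log2 fold change was -1.45 ± 0.18 (SE, 95% interval -1.93 to -0.97), a 2.74-fold lower signal, and 6.36% of the genes tested differed by more. The adjusted p of 0.0508 in limma was just over the threshold. A second SOCS5 probe was lower with embelin as well, with 7.25 and 7.21 in the controls and 5.39 and 6.02 with embelin. There the log2 fold change was -1.53 ± 0.28 (SE, adjusted p = 0.0970 over all probes), and 1 of 2 embelin arrays was well above background. With normexp background correction the log2 fold change of this probe was -0.76 (adjusted p = 0.0891 over all probes). Whether SOCS5 was called depended on the setting. It passed with normexp background correction (log2 fold change -1.21, adjusted p = 0.0291), among probes well above background on all 4 arrays (adjusted p = 0.0227), and with a robust trended prior (adjusted p = 0.0190). It also passed with the percentile taken over probes without outlier spots (adjusted p = 0.0454), a setting chosen after seeing the data. Over all 15 other settings the log2 fold change lay between -1.55 and -1.21 and the adjusted p between 0.0190 and 0.412.

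SOCS7, which binds signalling adaptors and insulin receptor substrate, measured 6.22 and 6.13 in log2 in the controls and 7.05 and 7.30 with embelin. The groups did not overlap, and the signal was higher with embelin by 1.00 ± 0.18 in log2 (SE, 95% interval 0.51 to 1.50), which is 2.00-fold. The adjusted p of 0.0881 did not reach the threshold, and 12.5% of genes differed by more. Among probes well above background on all 4 arrays the same difference passed, with an adjusted p of 0.0497, and over all 15 other settings the adjusted p ran from there to 0.501. Normexp correction gave the smallest difference, 0.62. The second SOCS7 probe was not kept, being well above background on 1 array of each group, and stood at 5.14 and 4.58 in the controls and 5.74 and 5.24 with embelin.

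SOCS6, the closest relative of SOCS7 and a binder of activated receptor kinases such as KIT, measured 11.04 and 10.73 in log2 in the controls and 10.68 and 10.82 with embelin. The groups overlapped, and the log2 fold change was -0.14 ± 0.20 (SE, 95% interval -0.67 to 0.40; adjusted p = 0.765). The dimmer probe of SOCS6 went the other way, at 6.69 and 5.00 in the controls against 6.38 and 6.60, with 1 of 2 controls well above background. That sign rested on control 2, as the log2 fold change of the dimmer probe was -0.20 without control 2 and 1.49 without control 1. When the 2 probes were averaged, the sign at the gene turned, to 0.26. At the brighter probe it also turned, to 0.020, without control 1.

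SOCS4, the near relative of SOCS5, had no kept probe. Its 2 probes were well above background on 1 array of each group, control 1 and embelin 2, the arrays that read further down. They stood at 5.71 and 4.38 in the controls and 5.84 and 5.36 with embelin at the first probe, and at 4.39 and 3.70 against 3.85 and 4.25 at the second. With no filter on dim probes, the first SOCS4 probe had a log2 fold change of 0.56 ± 0.58 (SE, adjusted p = 0.978).

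PIM1, the kinase introduced above as a classical output of STAT3 and STAT5, measured 11.02 and 10.80 in log2 in the controls and 12.07 and 11.67 with embelin. The activity of these factors was not measured, and their part in the PIM1 signal was not tested. Both embelin arrays lay above both controls. The log2 fold change of 0.96 ± 0.22 (SE, 95% interval 0.35 to 1.57), or 1.94-fold, did not pass the adjusted test (adjusted p = 0.129). With a robust trended prior it passed (adjusted p = 0.0459), and with no filter on dim probes the adjusted p was 0.582. Over all 15 other settings the log2 fold change lay between 0.75 and 1.16. PIM1 had 1 probe on the array, so no second probe bears on it. No test between PIM1 and its relatives was run. PIM2 was lower with embelin by 1.04 in log2 (log2 fold change -1.04, adjusted p = 0.225) and PIM3 was higher by 0.67 (adjusted p = 0.228), and neither was called.

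**Figure D3:**
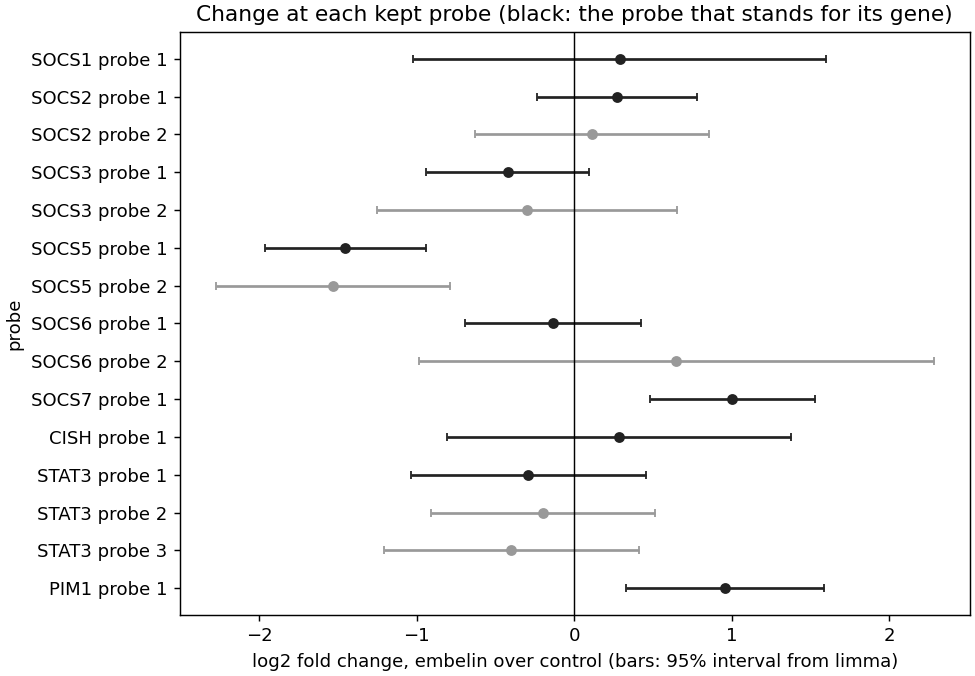
Log2 fold change of embelin over control (horizontal axis) at each of the 15 kept probes of the member genes (vertical axis), with the 95% interval from limma over probes; black marks the probe that stands for its gene. Both SOCS5 probes lie near -1.5, at -1.45 and -1.53, the probes of SOCS7 and PIM1 lie at 1.00 and 0.96, and the 2 kept probes of SOCS6 lie on either side of 0.

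Set side by side, the SOCS family did not move in 1 direction. At their brightest kept probes SOCS5, SOCS3 and SOCS6 had log2 fold changes of -1.45, -0.42 and -0.14, and SOCS2, CISH, SOCS1 and SOCS7 had 0.27, 0.28, 0.29 and 1.00. The classical STAT-induced feedback genes CISH, SOCS1, SOCS2 and SOCS3 had differences of at most 0.42 in size, with wide intervals for SOCS1 and CISH, and the 2 differences of at least 2-fold were those of SOCS5 and SOCS7, with opposite signs. No test between genes was run.

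**Figure D4:**
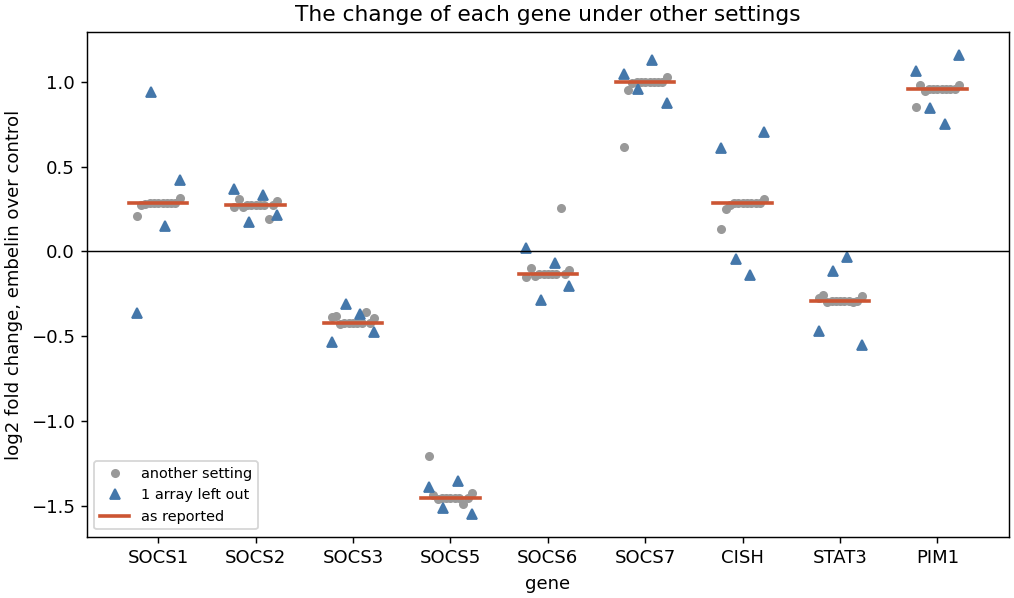
Log2 fold change of embelin over control (vertical axis) of each tested member gene (horizontal axis) as reported (bar), under the other settings (circles) and with 1 array left out (triangles). SOCS5 stays between -1.55 and -1.21, SOCS7 between 0.62 and 1.13 and PIM1 between 0.75 and 1.16, while the values of SOCS1, SOCS6 and CISH fall on both sides of 0.

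The genes whose values over the 4 arrays lay closest to those of the 3 members with the largest differences were found by the Euclidean distance between centred log2 values, over 15292 genes well above background on all 4 arrays. For SOCS5 they were the transcript THC2638360 (distance 0.060), LOC146909 (0.080) and RSBN1L (0.081). For SOCS7 they were FBXO32, a muscle ubiquitin ligase gene (0.056), ITFG2 (0.071) and MAP1LC3B, an autophagosome gene (0.073). For PIM1 they were SAMD8 (0.077) and the transcripts HsapiCR749858 (0.082) and ENST00000379659 (0.086). With 4 arrays such closeness is common, as 339, 788 and 451 genes lay within 0.5 of SOCS5, SOCS7 and PIM1.

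Around the members, 8 lists of JAK-STAT genes held 93 different genes, of which 75 were kept. The lists were chosen with earlier results of these data known. The counts in this and the following paragraphs therefore describe the lists and are no independent test of the pathway. Of these 75 genes, 6 rose and 0 fell at an adjusted p under 0.05, where 221 of all 17649 genes tested rose and 99 fell (1.81% together). Their median log2 fold change was -0.06, as it was over all genes tested. With any 1 of the 4 arrays left out, 0 of the list genes were called by limma, and 17 to 20 had an unadjusted p under 0.05, against 31 with all 4 arrays (31 of 75, beside 19.5% of all genes tested).

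The ligands were the list with the largest median shift. Of 13 ligands 6 were kept, 2 rose and the median log2 fold change was 1.91. This median includes CSF3, which was kept through its embelin arrays alone. IL11, an interleukin-6 family cytokine that signals through gp130, rose from 10.11 and 10.26 in log2 to 12.62 and 12.57, a log2 fold change of 2.40 ± 0.17 (SE, adjusted p = 0.0233). CSF2, which encodes GM-CSF and signals through JAK2 and STAT5, rose from 6.54 and 6.24 to 8.70 and 8.78, by 2.35 (adjusted p = 0.0284). CSF3, which encodes G-CSF, stood at 4.62 and 3.79 in the controls, 1 of which was well above background, and at 7.38 and 6.86 with embelin (adjusted p = 0.0547). Chosen after their values were seen, LIF had a log2 fold change of 1.47 (adjusted p = 0.0625) and IL6 one of -1.07 (adjusted p = 0.0763), with no overlap between groups in either. IL6 thus had the opposite sign to IL11 and LIF, which share its receptor chain gp130.

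The receptors and kinases held no called gene. Of 23 receptors 17 were kept and none was called, with a median log2 fold change of 0.06, and the largest were those of IL4R at 1.23 (adjusted p = 0.0663), IFNLR1 at 0.97 and OSMR, the oncostatin M receptor, at 0.93. The 3 OSMR probes had log2 fold changes of 0.60 to 1.19. All 4 JAK kinases were kept, and none was called at log2 fold changes from -0.38 (JAK3) to 0.06, with JAK2 at -0.32 and TYK2 at -0.18. The second kept JAK3 probe had the opposite sign, at 0.31. The 6 other STAT factors were kept and none was called. STAT2 was at -0.61 ± 0.50 (SE, adjusted p = 0.567), where the groups overlapped and 1 of 2 embelin arrays was well above background. STAT4 was at -0.50 ± 0.17 (SE, adjusted p = 0.223), without overlap.

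The genes that work beside the SOCS proteins were not called. The 6 partners of the SOCS box ligase had log2 fold changes between -0.15 (CUL5, the cullin scaffold) and 0.14 (RNF7, its RING partner), with ARIH2 at -0.13. Of the 14 other restraints on the pathway, which include the PIAS proteins and phosphatases, 13 were kept and none was called. SH2B3, the adaptor LNK, stood at 5.75 and 5.35 in log2 in the controls, 1 of which was well above background, and at 7.11 and 7.35 with embelin, a log2 fold change of 1.68 (adjusted p = 0.0569). PIAS1 and PIAS3, inhibitors of STAT factors, had log2 fold changes of -0.86 and -0.62, with adjusted p of 0.165 and 0.177.

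Among 28 textbook target genes of STAT3, 24 were kept and 4 rose, while the median log2 fold change was -0.20. The 4 were VEGFA, which encodes an angiogenic growth factor, at 3.63 ± 0.31 (SE, adjusted p = 0.0312), the AP-1 genes FOS at 2.43 (adjusted p = 0.0307) and FOSL1 at 2.37 (adjusted p = 0.0246), and the adhesion molecule gene ICAM1 at 1.91 (adjusted p = 0.0361). All probes kept of VEGFA, FOSL1 and ICAM1 rose. Each of these 4 genes is also a known target of other factors, such as HIF, AP-1, SRF or NF-κB. Of the 24 kept genes, 9 were higher and 5 lower at an unadjusted p under 0.05, beside 1475 higher and 1965 lower of all 17649 genes tested (19.5%), and PIM1 and SOCS3, which are counted here as members and not in the list, had the log2 fold changes of 0.96 and -0.42 given above.

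**Figure D5:**
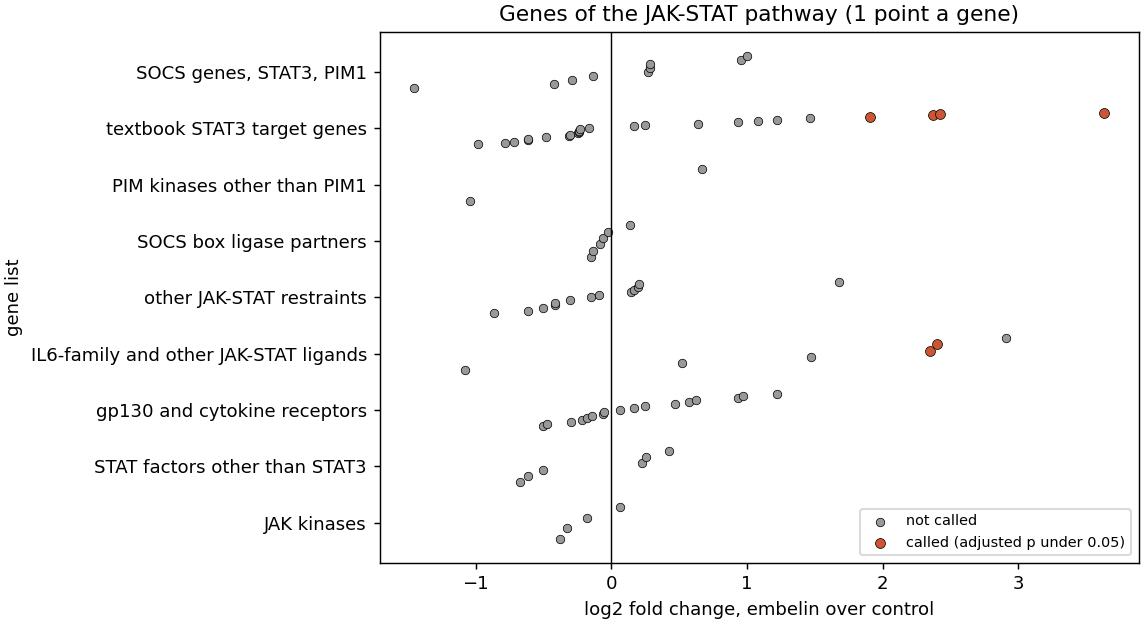
Log2 fold change of embelin over control (horizontal axis) of each kept gene in the 8 JAK-STAT lists and among the 9 tested members (vertical axis); red points passed an adjusted p under 0.05. The 6 called genes lie among the ligands and the STAT3 target genes at 1.91 to 3.63, and the SOCS box ligase partners lie within 0.15 of 0.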

How the data were processed

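RNA of 4 A549 samples, 2 control and 2 embelin, was hybridised to 4 single-colour (Cy3) arrays of 1 Agilent slide, read in 1 scan. The authors deposited the intensity of each spot as written by Feature Extraction 10.7.3.1, background-subtracted and not normalized between arrays, and a table of probe values. This deposited table differed by more than 0.001 in log2 from spot averages for 100 to 122 of 50238 probes per array. Student's t-test at a 2-fold threshold, after scaling to the 75th percentile, is the approach in the paper's methods.

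Outlier spots were left out and the spots of a probe averaged. Signals were scaled to the geometric mean of the arrays' 75th percentiles over non-control spots, set to at least 1 and taken to log2. Of 50238 probes, 28595 were named by accession in RefSeq's gene table, 2341 through a probe of the same file name, and 19302 kept their file name. Kept were 26146 probes that either group had well above background on both its arrays. Groups were compared with limma 3.58.1 in R 4.3.3 (prior of 2.16 degrees of freedom, prior SD 0.217), adjusted by Benjamini-Hochberg over 17649 genes. The fit was also run on simulated data, the outcome of which is not reported here. Replicate arrays correlated at r = 0.973 (control) and 0.972 (embelin). Precision is limited by the number of arrays.

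Text names every member at every probe, list genes that were called or were among the 3 largest differences of a list, and the 3 nearest genes of the 3 most different members. One value under this rule is not reported here. Members and lists were chosen with earlier results of these data known. Alternatives changed the background correction, the normalization, the source of values, the filter, the test, the probe rule, a replicate block, slide position and the arrays used. Protein sequences and probe coordinates were not used here.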

Additional observations from a re-analysis of the deposited data

How the results depend on the processing

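As reported, 320 genes, 282 probes, 6 list genes and 0 members were called. With normexp the counts were 699, 819, 10 and 1, among probes well above background on all 4 arrays 764, 768, 10 and 2, and with a robust trended prior 1061, 1296, 11 and 2. The deposited table gave 159 genes and 158 probes with the list and member counts unchanged. With no filter on dim probes, the t-test after adjustment, and slide position as a covariate, 0 genes, 0 probes, 0 list genes and 0 members were called in each, with 2343 to 3053 genes, 18 to 27 list genes and 2 to 3 members at an unadjusted p under 0.05. With the replicate block the counts were likewise 0, 0, 0 and 0, with 3743 genes, 31 list genes and 3 members at an unadjusted p under 0.05. The labels tie same-numbered samples by the number alone. Over 17298 genes, replicate 1 minus replicate 2 in the controls correlated with that in the embelin group at r = 0.175. The percentile over probes without outlier spots, chosen after seeing the data, called 1 member. Leaving out 1 array gave 0 to 0 for each count, with 2131 to 3050 genes and 2 to 3 members at an unadjusted p under 0.05. Quantile normalization gave 259 genes and averaging probes 218, both with 6 list genes and 0 members.

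SOCS5 passed under 4 settings, SOCS7 under 1 and PIM1 under 1, as given in the report. The sign turned for SOCS6 (0.26 with probes averaged, -0.29 to 0.020 with 1 array left out), SOCS1 (-0.36 without control 1, to 0.94 without control 2) and CISH (-0.05 without control 2, -0.14 without embelin 1, up to 0.71 without embelin 2), none of them called. At the probe that stood for the gene, or the average of its probes, the other members kept their sign in all 15 alternatives. At second probes the sign turned with 1 array left out for SOCS2 (-0.099 without control 1, -0.11 without embelin 2). It did so as well for SOCS3 (0.096) and STAT3 (0.038), each without embelin 1, and for SOCS6 (-0.20 without control 2). The cause of these changes was not tested. With 2 arrays a group, and 3 once 1 is left out, the fits have few degrees of freedom.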
